A study of Rattus norvegicus with 12 samples.

Results

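Genes of the ADAM, ADAMTS and ADAMTS-like families were followed in skin-derived precursors (SKPs), cells of the newborn rat dermis that grow as floating spheres. Members were the array features annotated with exactly 1 gene symbol of the form Adam, Adamts or Adamtsl followed by a number. There were 43 of them among 18166 genes, namely 24 ADAM, 14 ADAMTS and 5 ADAMTSL genes, and each had 1 feature. The study measured total RNA of dissociated secondary spheres from neonatal Sprague-Dawley rats on Affymetrix Rat Gene 2.0 ST arrays. Its 12 arrays form 4 groups of 3: vehicle, alprostadil at 100 nM, trimebutine maleate at 100 nM, and trimebutine maleate with trametinib at 100 nM each, all for 24 h and all in culture with FGF2, EGF and B27. The design text names 3 independent isolates of cells, and the arrays of every group carry the replicate numbers 1 to 3. Trametinib is a MEK inhibitor and so blocks signalling to ERK. Alprostadil is the drug name of prostaglandin E1, and trimebutine is used for gut motility. Trametinib was not given alone, so its comparison is made on a background of trimebutine. What the vehicle held and how many pups gave an isolate are not stated in the labels.

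ADAMs are membrane proteins with a metalloprotease and a disintegrin domain. Those with an intact active site cut the outer part of growth factors, cytokine receptors and adhesion proteins from the cell surface, a step called shedding, while others lack a working site and act as adhesion partners. ADAMTS proteins are secreted proteases with thrombospondin repeats that bind the matrix: one branch cuts aggrecan and versican, another trims the amino-terminal propeptide from fibrillar procollagens, and others act on cartilage oligomeric matrix protein (COMP) or are linked to fibrillin microfibrils. ADAMTSL proteins have the ADAMTS ancillary domains without a protease domain, and several bind fibrillin. In the dermis these families are known for growth factor release, collagen assembly and turnover of the versican-rich matrix.

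Values are log2 expression as deposited, so that a difference of 1 is a doubling, and they are compared only between groups for the same gene. Array medians ran from 6.409 to 6.505, and arrays of one group correlated at 0.985 to 0.991. A gene was tested if its mean over the 12 arrays reached 5.83, the 25th percentile of features with 1 symbol. That left 30 members of the families in a set of 13636 genes, namely 12 ADAM, 13 ADAMTS and all 5 ADAMTSL genes. The 13 members under the limit were Adamts3, Adam28 and 11 ADAMs known mainly from testis and sperm (Adam2, Adam3a, Adam5, Adam6, Adam7, Adam18, Adam24, Adam26a, Adam32, Adam34 and Adam34l). Adam10, Adam33, Adamts6, Adamts8, Adamts13, Adamts16 and Adamts20 had no feature with exactly 1 symbol and were not analysed here, so the branches below are not complete. Because a gene could reach the limit through a single group, the 30 are not a random sample of the families. The 13 SKP markers on the array, among them Vim, Fn1, Pdgfra and Vcan, all reached the limit, with means per array from 9.93 to 10.26. Levels within this list were uneven. Pax3 averaged 5.99, Twist1 6.20, Sox9 6.52 and Sox2 6.66, not far above the limit of 5.83. The rest of the list averaged from 8.53 (Nes) to 13.53 (Vim). Markers of other cells averaged from 5.97 to 6.18 for keratinocytes, 6.11 to 6.51 for endothelium, 6.40 to 6.89 for Schwann cells and 6.16 to 6.43 for melanocytes. Above the limit were 6 of 8 keratinocyte, 4 of 5 endothelial, 4 of 5 Schwann cell and 3 of 6 melanocyte markers, and 13 of 14 macrophage markers. Single markers differed widely, and Mitf of the melanocyte list averaged 10.89. The mean of the macrophage markers followed the replicate number: 7.45 to 7.69 in the arrays of replicate 1, 8.10 to 8.29 in those of replicate 2 and 8.50 to 8.84 in those of replicate 3. In RNA from mixed cells, fewer cells of a type and less RNA per cell cannot be told apart.

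Promoter sequence was available for 28 of the 43 members, as the 250 bases before the RefSeq transcript start in GRCr8. Adamts5 and Adamts15 were not among the 28. Of the 18 genes that changed when trametinib was added (described after the sequences), 14 had a promoter, 9 that rose and 5 that fell. Each promoter was searched on both strands for 5 short motifs: TGANTCA (bound by AP-1), TGACGTCA (the CRE), CCGGAAG (an ETS site), GGGCGG (a GC box) and TATAAA. The AP-1 and ETS families are textbook endpoints of ERK signalling, which is why these letters were looked for. The letters were taken as plain matches, with no scoring, and none of the capital runs printed here overlaps another of them. The promoters of 5 members are shown, 3 genes that rose, 1 that fell and 1 that did not pass, each 5′ to 3′ on the gene's strand. Capitals mark matches to the AP-1, CRE, ETS and TATA letters, and GC boxes stay in lower case. They are Adamts1 at chr11:38427385-38427634 (minus strand), Adamts2 at chr10:35421780-35422029 (plus), Adam15 at chr2:177062850-177063099 (minus), Adam12 at chr1:198443681-198443930 (minus) and Adam19 at chr10:30992511-30992760 (plus).
Adamts1: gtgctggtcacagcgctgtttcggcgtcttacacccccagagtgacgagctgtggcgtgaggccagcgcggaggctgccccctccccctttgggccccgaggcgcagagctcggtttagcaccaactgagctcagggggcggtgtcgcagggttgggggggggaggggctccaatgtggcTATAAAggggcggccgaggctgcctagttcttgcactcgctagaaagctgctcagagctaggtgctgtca
Adamts2: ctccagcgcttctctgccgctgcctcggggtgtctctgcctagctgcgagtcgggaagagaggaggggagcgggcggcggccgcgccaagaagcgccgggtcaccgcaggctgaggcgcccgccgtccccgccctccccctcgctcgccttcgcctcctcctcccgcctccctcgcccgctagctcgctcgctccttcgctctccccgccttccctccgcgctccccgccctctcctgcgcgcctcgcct
Adam15: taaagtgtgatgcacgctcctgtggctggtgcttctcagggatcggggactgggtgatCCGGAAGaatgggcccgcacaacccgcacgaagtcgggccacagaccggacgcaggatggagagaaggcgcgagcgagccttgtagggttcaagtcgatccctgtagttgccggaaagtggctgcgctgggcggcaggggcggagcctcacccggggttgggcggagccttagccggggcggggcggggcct
Adam12: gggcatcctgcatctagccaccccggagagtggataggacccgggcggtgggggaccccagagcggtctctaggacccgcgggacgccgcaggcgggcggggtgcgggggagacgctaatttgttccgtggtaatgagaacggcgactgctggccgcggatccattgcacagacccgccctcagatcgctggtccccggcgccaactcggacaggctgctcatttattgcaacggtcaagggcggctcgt
Adam19: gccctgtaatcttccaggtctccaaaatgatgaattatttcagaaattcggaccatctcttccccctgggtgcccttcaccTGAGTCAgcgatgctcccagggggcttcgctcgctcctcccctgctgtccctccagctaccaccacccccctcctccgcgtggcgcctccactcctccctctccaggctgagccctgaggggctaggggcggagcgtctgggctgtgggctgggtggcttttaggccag
The Adamts1 window holds TATAAA 70 to 65 bases before the start and a GC box just after it. The Adam15 window holds the ETS letters 192 to 186 bases before the start and 5 GC boxes. The Adam19 window holds TGAGTCA 169 to 163 bases before the start, which was the sole AP-1 match among the 28 member promoters.

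The AP-1 letters occurred in 6.33% of 27457 promoters, 1 per gene, and in 0 of the 9 members that rose and 0 of the 5 that fell. The CRE letters occurred in 1.69% of all promoters and in 0 of the 14. ETS letters occurred in 7.75% of all promoters and in Adam15 alone among the 14. TATAAA occurred in 13.1% of all promoters, in Adamts1 and Adamts7 among the 9 that rose, and in 0 of the 5 that fell. GC boxes occurred in 32.4% of all promoters, in 6 of the 9 that rose and in all 5 that fell, so the genes that moved in opposite directions both held them. Of tested members that did not pass, Adam19, Adamts10, Adamtsl2 and Adamtsl3 held them. Adam1a, Adam4, Adam30, Adamts4, Adamts17 and Adamts18 did not. The 27457 promoters were not limited to genes tested here, so nothing is read from these shares. The start used for Adam17 lay 14346 bases from the edge of its gene. These are matches of letters in a short window, and they were read from sequence, not from any measurement of binding.

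When trametinib was added to trimebutine, most tested ADAMTS genes rose, and the ADAM genes that changed fell with 1 exception. Of the 30 tested members 12 rose and 6 fell at a limma adjusted p under 0.05, beside 33.4% of all genes called (16.8% higher and 16.6% lower). Among ADAMTS genes 9 of 13 rose and 0 fell, with a median difference of 0.41. Among ADAM genes 1 of 12 rose (Adam15) and 5 fell (Adam8, Adam9, Adam12, Adam17 and Adam22), with a median of −0.12. Among ADAMTSL genes 2 of 5 rose (Adamtsl4 and Adamtsl5) and 1 fell (Adamtsl1), with a median of 0.11. The median over the 30 was 0.12, and over all 13636 genes it was 0.03. Groups did not overlap for 12 members that were higher and 6 that were lower, beside 24% and 21.8% of all genes. With the replicate number as a block 19 members were called, the same 18 and Adamts4, beside 42% of all genes (21.2% higher and 20.8% lower).

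The 5 ADAMTS proteoglycanases analysed, which cut aggrecan and versican, held the largest rise of the families. Adamts5, the main aggrecanase of mouse cartilage, read 8.17, 7.84 and 8.26 with trimebutine in replicates 1 to 3, and 10.75, 10.87 and 10.87 once trametinib was added. All 3 arrays with trametinib lay far above the others, and the 3 vehicle arrays (8.17, 7.84 and 8.21) differed from those with trimebutine of the same number by 0.054 or less. The means were 8.09 ± 0.22 and 10.83 ± 0.07 (SD, n = 3), a difference of 2.74 (SE 0.127, 95% confidence interval 2.46 to 3.02, limma adjusted p = 6.77e-08), or 6.67-fold. Adamts15, a related proteoglycanase, went from 7.57, 7.41 and 7.11 to 9.02, 9.03 and 8.61. Replicate 3 was lowest in both groups, and the rise within replicates was 1.45, 1.62 and 1.50. Its mean difference was 1.52 (SE 0.178, adjusted p = 5.01e-05), or 2.87-fold.

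Adamts1, which cuts versican in remodelling tissue, went from 9.87, 10.08 and 10.20 to 10.81, 10.91 and 11.02. The groups did not overlap, and the difference was 0.86 (SE 0.108, adjusted p = 8.59e-05). Adamts9, a secreted protease of versican, went from 8.31, 8.11 and 8.52 to 8.83, 8.67 and 8.82. It rose by 0.46 (SE 0.124, adjusted p = 0.0139), and without replicate 2 of trimebutine the adjusted p was 0.0603. Adamts4, the other classical aggrecanase, did not pass. It read 7.68, 6.92 and 7.29 with trimebutine and 7.13, 6.82 and 6.92 with both drugs, so the groups overlapped although every replicate was lower. Its difference was −0.34 (SE 0.190, adjusted p = 0.200), and with the replicate block the adjusted p was 0.00936, a fall. Adamts1 and Adamts5 are neighbours on rat chromosome 11 in the GRCr8 gene table, with 0 protein-coding genes between them.

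**Figure D1:**
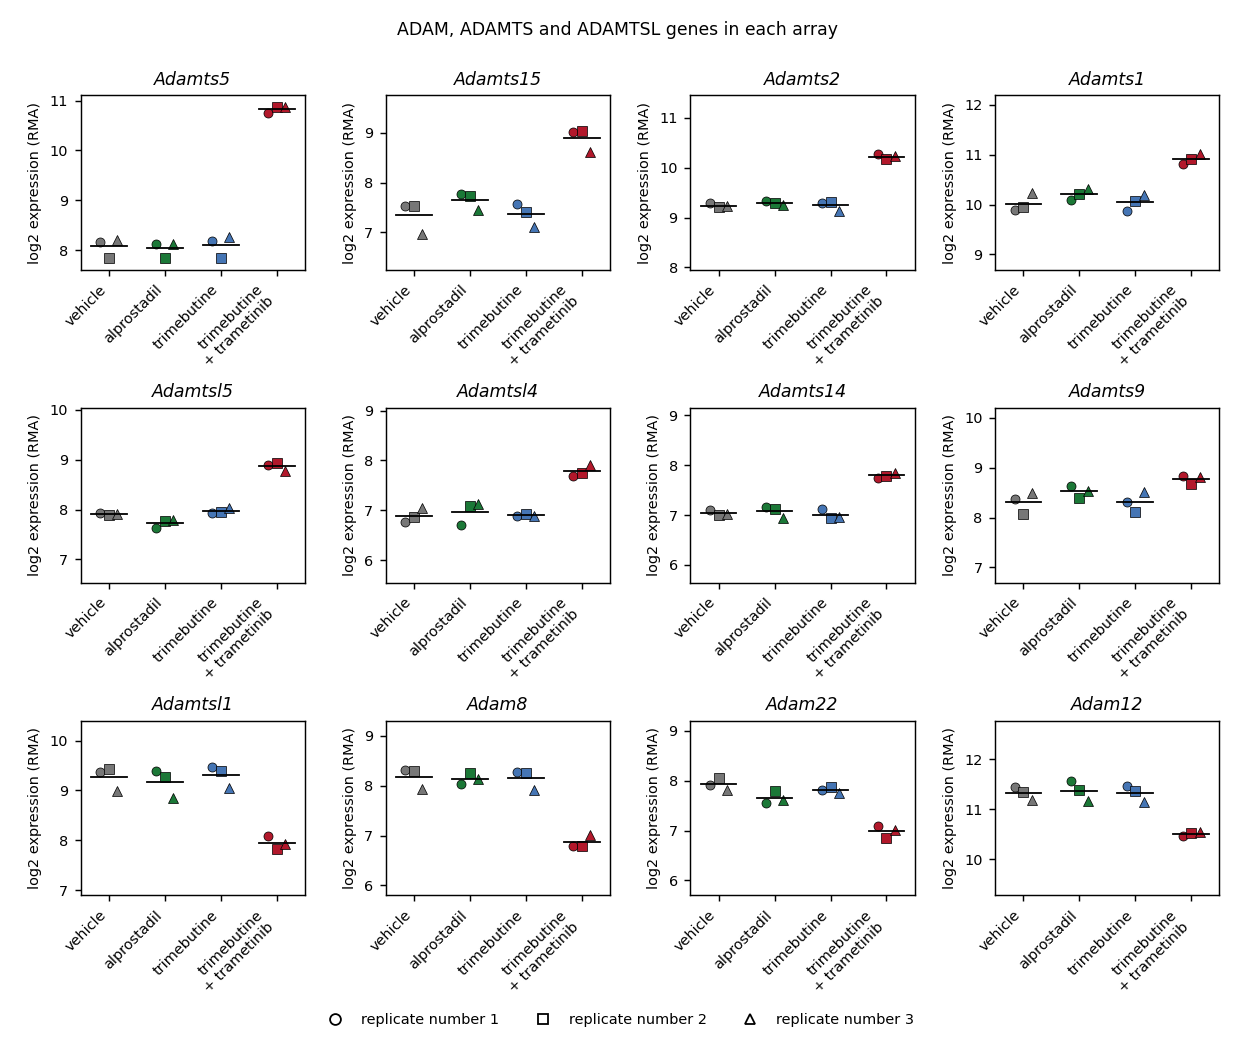
Log2 expression (RMA values, y axis, with a range of its own in every panel and no zero) of 12 family members in each of the 12 arrays, grouped by treatment on the x axis, with a symbol for each replicate number and a line at the group mean. In the upper 8 panels the trimebutine with trametinib arrays sit above the trimebutine arrays (Adamts5 from 8.09 to 10.83 on average), and in the lower 4 they sit below (Adam8 from 8.15 to 6.86).

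The 2 tested procollagen N-proteinases, which remove the amino-terminal propeptide so that collagen can assemble, both rose. Adamts2, the enzyme lost in dermatosparaxis, read 9.30, 9.31 and 9.14 with trimebutine and 10.27, 10.17 and 10.24 with trametinib added. The arrays of a group lay within 0.17 of each other and the difference was 0.98 (SE 0.062, adjusted p = 4.89e-07), or 1.97-fold. Adamts14 went from 7.12, 6.95 and 6.96 to 7.74, 7.79 and 7.85, a difference of 0.79 (SE 0.073, adjusted p = 8.73e-06). Adamts3, the third member of this branch, was under the limit and moved the other way: 5.93, 5.55 and 5.48 with trimebutine and 5.24, 5.42 and 5.19 with both drugs. The groups did not overlap, and in a fit with no limit on low values Adamts3 fell by 0.37 (adjusted p = 0.0346).

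Smaller rises were seen in ADAMTS genes with other substrates. Adamts12, which cuts COMP, read 9.97, 9.63 and 9.88 and then 10.35, 10.16 and 10.20, a rise of 0.41 (SE 0.131, adjusted p = 0.0313). The call was lost without replicate 2 or 3 of trimebutine (adjusted p = 0.122 and 0.0530) and without replicate 1, 2 or 3 of the combination (0.102, 0.0513 and 0.0579), and it was kept with the replicate block (0.000507). Adamts7, the other protease of COMP, went from 7.28, 7.23 and 7.62 to 7.74, 7.65 and 7.62. Replicate 3 did not move and the groups touched, so that the rise of 0.30 (SE 0.104, adjusted p = 0.0478) rested on replicates 1 and 2, and the adjusted p was 0.155 without replicate 1 of trimebutine, 0.173 without its replicate 2, and 0.134, 0.0919 and 0.0695 without replicates 1, 2 and 3 of the combination.

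The 3 ADAMTS genes placed in the fibrillin-linked group were mixed, and no link of Adamts19 to fibrillin was measured here. Adamts19 went from 5.97, 6.05 and 6.08, close to the limit, to 6.62, 6.39 and 6.19. It rose by 0.37 (SE 0.102, adjusted p = 0.0161), a call lost without replicate 1 of trimebutine and without replicate 1 of the combination (0.0581 in both). Adamts10 (−0.17, adjusted p = 0.132) and Adamts17 (0.17, 0.167) did not pass; Adamts17 passed without replicate 3 of the combination (0.25, 0.0406). Adamts18 did not pass either (0.13, 0.279).

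ADAMTSL genes changed in both directions, and 2 of the 5 did not pass. Adamtsl5, a fibrillin-binding protein, read 7.94, 7.95 and 8.04 with trimebutine and 8.90, 8.94 and 8.78 with both drugs. Its difference of 0.89 (SE 0.063, adjusted p = 1.19e-06) was larger than the 0.16 between the highest and lowest array of a group. Adamtsl4, known for the fibrillin fibres that hold the lens, went from 6.89, 6.93 and 6.89 to 7.68, 7.76 and 7.90, a difference of 0.88 (SE 0.112, adjusted p = 9.70e-05). Adamtsl1, also called punctin, went from 9.47, 9.40 and 9.04 to 8.09, 7.82 and 7.92. No arrays overlapped, and the fall was 1.36 on the log2 scale (SE 0.164, adjusted p = 6.24e-05), or 2.57-fold. Adamtsl2 (0.04, 0.705) and Adamtsl3 (0.11, 0.475) did not pass.

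**Figure D2:**
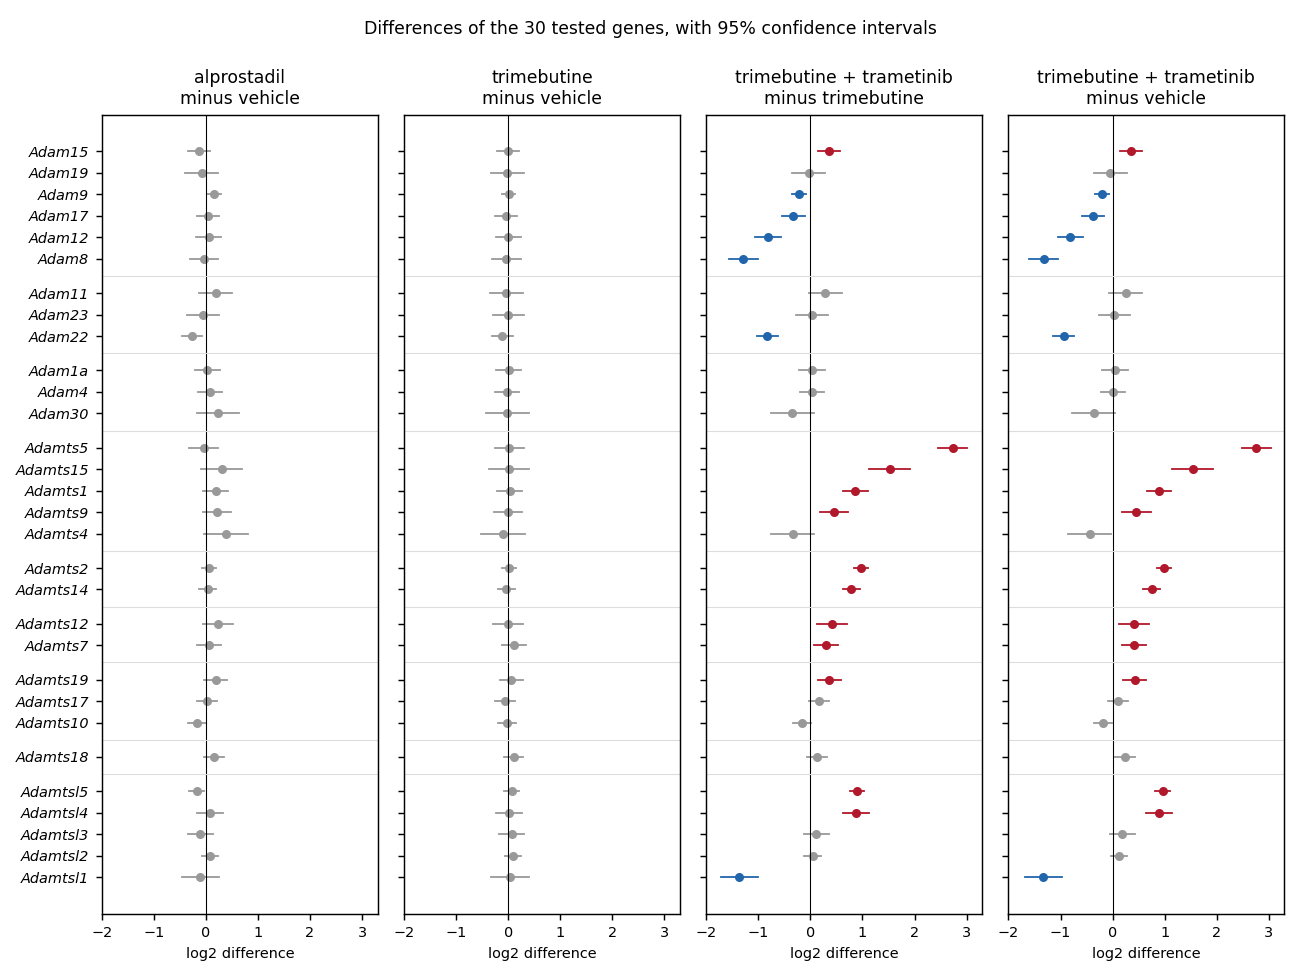
Log2 difference (x axis) of the 30 tested members in the 4 comparisons, ordered by role from membrane ADAMs at the top to ADAMTS-like genes at the bottom, with 95% confidence intervals from limma as bars. Red points rose, blue points fell and grey points did not pass. Grey points fill the 2 panels on the left, and the 2 panels on the right each hold 12 red and 6 blue points.

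Among the membrane ADAMs with a working protease site, 4 of the 6 tested genes fell and 1 rose, with a median of −0.27. Of all genes, 16.6% fell and 16.8% rose in this comparison. Adam8, a sheddase known from immune cells, read 8.27, 8.27 and 7.91 with trimebutine and 6.79, 6.79 and 7.00 with trametinib added. The groups lay 0.90 apart at their nearest, and the fall was 1.29 (SE 0.126, adjusted p = 1.35e-05), or 2.44-fold. Of the 13 tested macrophage markers 1 fell (Cd68, −1.03) and 1 rose (C1qa, 0.52), beside 16.6% and 16.8% of all genes. With the replicate block 3 fell and 4 rose, beside 20.8% and 21.2% of all genes. The mean of the list ran from 7.62 to 8.75 in the trimebutine arrays and from 7.53 to 8.50 in the combination arrays. The part of macrophages in the fall of Adam8 was not tested. In vehicle replicates 1 to 3 the macrophage mean was 7.69, 8.10 and 8.73, and Adam8 read 8.31, 8.30 and 7.93.

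Adam12, a protease of mesenchymal cells that sheds HB-EGF, went from 11.47, 11.36 and 11.15 to 10.46, 10.52 and 10.55. The spread between replicates in trimebutine was 0.32, smaller than the fall of 0.82 (SE 0.112, adjusted p = 0.000169). Adam17, the sheddase of TNF and of several EGF receptor ligands, went from 11.27, 11.16 and 11.18 to 11.08, 10.75 and 10.82, and Adam9 from 10.24, 10.10 and 10.19 to 10.01, 9.91 and 9.97. Both were lower in every replicate and without overlap, by 0.33 (SE 0.098, adjusted p = 0.0229) and 0.21 (SE 0.060, 0.0173). Both calls were lost when arrays were centred on their medians (0.0718 for each), without replicate 1 of trimebutine (0.0793 for Adam17 and 0.0727 for Adam9) and without replicate 2 of the combination (0.0961 and 0.0648); that of Adam17 was also lost without replicate 3 of the combination (0.0709).

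Adam15, which sheds cadherins and binds integrins, was the member of this branch that rose, from 8.65, 8.69 and 8.75 to 8.98, 9.12 and 9.05. Its difference was 0.35 (SE 0.096, adjusted p = 0.0141), and the adjusted p was 0.0503 without replicate 1 of trimebutine and 0.0547 without replicate 2 of the combination. Adam19, a sheddase of neuregulin, read 10.67, 10.69 and 10.31 and then 10.71, 10.54 and 10.34. Its difference of −0.03 (95% confidence interval −0.34 to 0.29, adjusted p = 0.911) was smaller than the gap between replicate 3 and the others in either group.

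Of the 3 ADAMs without a working protease site, Adam22, a receptor of LGI proteins in the nervous system, went from 7.81, 7.88 and 7.75 to 7.09, 6.84 and 7.02. It fell by 0.83 (SE 0.091, adjusted p = 3.14e-05), while Adam23 (0.03, 0.882) and Adam11 (0.28, 0.163) did not pass. None of the 3 tested testis ADAMs passed: Adam1a (0.03, 0.853), Adam4 (0.03, 0.871) and Adam30 (−0.35, 0.181). The 12 ADAMs left out by the limit had means over the 12 arrays from 2.39 (Adam34) to 5.78 (Adam26a). In the fit with no limit, Adam34 alone among them passed, at 2.15 ± 0.13 with trimebutine and 2.67 ± 0.23 with both drugs (SD, n = 3, adjusted p = 0.00734).

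Against vehicle, the combination called the same number of members, 12 that rose and 6 that fell, beside 35% of all genes (17.5% higher and 17.5% lower). This comparison uses the same 3 combination arrays, so it is not a second test of them. Differences from vehicle were 2.76 for Adamts5, 1.54 for Adamts15, 0.99 for Adamts2, 0.96 for Adamtsl5, 0.89 for Adamts1 and Adamtsl4, and 0.75 for Adamts14. Among the falls they were −1.33 for Adamtsl1, −1.32 for Adam8, −0.94 for Adam22 and −0.81 for Adam12. Smaller differences that passed were those of Adamts9 (0.46), Adamts19 (0.43), Adamts12 (0.41), Adamts7 (0.40), Adam15 (0.35), Adam17 (−0.37) and Adam9 (−0.21). Adamts7 did not overlap here, at 7.23, 7.17 and 7.40 in vehicle and 7.62 to 7.74 in the combination, and its adjusted p was 0.0105. Groups did not overlap for 14 members that were higher and 9 that were lower, beside 24.9% and 22.3% of all genes. The replicate block called 20 members, beside 43.2% of all genes (22.1% higher and 21.1% lower): Adamts18 rose by 0.23 (adjusted p = 0.0477, and 0.0551 without the block) and Adamts4 fell by 0.44 (0.00200, and 0.0955 without).

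Some of the small calls against vehicle also changed when 1 array was left out. Leaving out an array lowers the precision too, so a lost call need not mean a smaller difference. Adamts12 without replicate 3 of the combination differed by 0.43, beside 0.41 with all arrays. Adam9 was lost without replicate 1 or 3 of vehicle (adjusted p = 0.0844 and 0.0540) and without replicate 2 of the combination (0.0732). Adam15 (0.0602 and 0.0572) and Adam17 (0.0525 and 0.0548) were lost without replicate 1 of vehicle and without replicate 2 of the combination. Adamts12 was lost without replicate 2 of vehicle (0.116) and without replicate 1 or 3 of the combination (0.0947 and 0.0538), and Adamts9 without replicate 2 of vehicle (0.0550). Adamts18 passed without replicate 3 of vehicle (0.0458) or of the combination (0.0380). The calls of Adamts5, Adamts15, Adamts2, Adamts1, Adamts14, Adamtsl4, Adamtsl5, Adamtsl1, Adam8, Adam12 and Adam22 held without each of these arrays, in both comparisons.

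Trimebutine alone called 0 of the 30 members and 0% of all genes by limma, with or without the replicate block. At an unadjusted p under 0.05 it gave 143 of 13636 genes, 252 with the block, and none of the 30 members without it. Differences of the members ran from −0.11 (Adam22) to 0.11 (Adamts7), with a median of 0.004 beside −0.001 over all genes. The confidence interval of Adamts5 was −0.26 to 0.30, that of Adamts15 −0.37 to 0.40, and that of Adam12 −0.24 to 0.25. Adamtsl5 was the single member whose groups did not overlap (7.90 to 7.93 in vehicle and 7.94 to 8.04 with trimebutine), beside 2.17% of all genes that were higher without overlap and 2.06% that were lower. Shifts of the size trametinib gave in Adamts5 lie outside these intervals, and shifts of the size seen in Adam9 lie outside its own interval of −0.12 to 0.14. For Adamts7 this does not hold: its shift of 0.30 when trametinib was added lies inside its trimebutine interval.

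Alprostadil called 0 of the 30 members by limma, beside 0.389% of all genes (0.323% higher and 0.066% lower). At an unadjusted p under 0.05 there were 3 members (Adam9, Adam22 and Adamtsl5), beside 6.97% of all genes. With the replicate block 1.88% of all genes were called (1.17% higher and 0.711% lower), and among the members Adamts15 alone rose. Its values were 7.54, 7.54 and 6.97 in vehicle and 7.77, 7.73 and 7.44 with alprostadil. The groups overlapped because vehicle replicates 1 and 2 lay above alprostadil replicate 3, yet every replicate was higher, by 0.23, 0.20 and 0.47. The difference was 0.30 with an adjusted p of 0.821 (SE 0.178) without the block and 0.0462 (SE 0.065) with it. Leaving out replicate 1, 2 or 3 in all groups, the blocked fit gave adjusted p of 0.193, 0.291 and 0.261.

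Adamts4 had the largest difference of the 30 members and did not pass. It read 7.74, 7.22 and 7.23 in vehicle and 7.98, 7.65 and 7.71 with alprostadil, a difference of 0.38 (SE 0.190, adjusted p = 0.767, and 0.0580 with the block). Each alprostadil array was above the vehicle array of its number, but vehicle replicate 1 was above alprostadil replicates 2 and 3. The other proteoglycanases gave 0.18 for Adamts1 (9.90, 9.95 and 10.22 in vehicle, 10.09, 10.21 and 10.32 with alprostadil), 0.21 for Adamts9 (8.38, 8.06 and 8.50, then 8.64, 8.40 and 8.54) and −0.04 for Adamts5 (8.17, 7.84 and 8.21, then 8.12, 7.85 and 8.13). None of these passed in either fit, and Adamts5 alone among the 5 was not higher in all replicates. The interval of Adamts5 was −0.32 to 0.24.

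**Figure D3:**
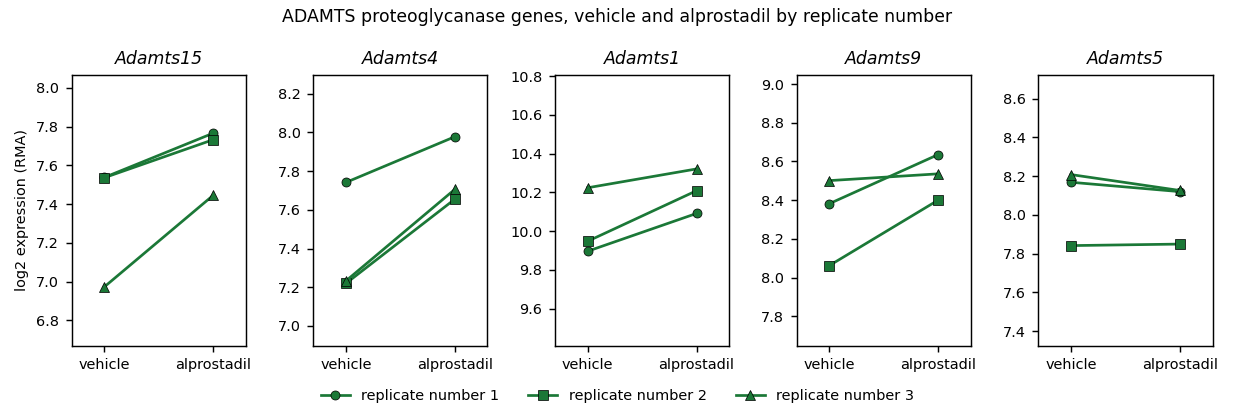
Log2 expression (RMA values, y axis, no zero) of the 5 ADAMTS proteoglycanase genes in vehicle and alprostadil arrays, with a line joining the arrays of 1 replicate number. All panels span the same number of log2 units. Lines for Adamts15 rise by 0.20 to 0.47, and those for Adamts5 stay between −0.08 and 0.01.

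The remaining members differed from vehicle by −0.27 to 0.24 with alprostadil, and over the 30 the median was 0.05 beside −0.01 for all genes. Adam9 was higher without overlap, at 10.24, 10.08 and 10.18 in vehicle and 10.34, 10.31 and 10.32 with alprostadil (0.16, adjusted p = 0.580). Adam22 was lower without overlap, at 7.92, 8.05 and 7.81 and then 7.55, 7.80 and 7.62 (−0.27, adjusted p = 0.464). Adamtsl5 was also lower without overlap, at 7.90 to 7.93 and then 7.63 to 7.79 (−0.18, adjusted p = 0.525). In all, 2 members were higher and 3 lower without overlap, beside 5.41% and 6.19% of all genes. Every replicate was higher in 11 members and lower in 6, beside 16.4% and 19.8% of all genes. The membrane sheddases Adam17 (0.04, interval −0.17 to 0.25) and Adam12 (0.05, −0.19 to 0.29) and the procollagen proteases Adamts2 (0.05, −0.08 to 0.19) and Adamts14 (0.03, −0.13 to 0.19) did not pass.

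Replicate numbers differed from each other in several members as much as some treatments did. Averaged over the 4 groups, Adamts4 ranged over 0.48 between replicate numbers, with replicate 1 highest, and Adamts15 over 0.44, with replicate 3 lowest. Replicate 3 was also lowest in Adamtsl1 (range 0.38) and Adam19 (0.35). At the other end Adamtsl5 ranged over 0.04. The block takes such differences out of the spread. Macrophage markers differed along the same replicate numbers, from lowest in replicate 1 to highest in replicate 3, and their part in these ranges was not tested.

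Partners of the sheddases moved in both directions when trametinib was added. In the list of sheddase cofactors and trafficking proteins 4 of 10 tested genes rose and 2 fell, with a median of 0.12. For this list and those that follow, 16.8% of all genes tested rose in the same comparison and 16.6% fell (21.2% and 20.8% with the block), with a median of 0.03, and nothing is read from a list's share against these. Rhbdf2, the inactive rhomboid that carries ADAM17 to the surface in immune cells, read 7.63, 7.55 and 7.70 with trimebutine and 7.21, 6.97 and 7.23 with both drugs, a fall of 0.49 (SE 0.104, adjusted p = 0.00341). Rhbdf1, its counterpart in other cells, gave −0.21 (adjusted p = 0.175, and 0.0404 with the block, a fall). Sh3pxd2a, the podosome scaffold TKS5 that binds ADAM12 and ADAM19, fell by 0.74 (SE 0.114, adjusted p = 0.000390). Pacs2, a sorting protein known for ADAM17 (0.83, adjusted p = 1.43e-05), and the sorting nexin Snx33 (0.58, 1.16e-05) rose, as did the ADAM10 tetraspanins Tspan5 (0.39, 0.0137) and Tspan17 (0.36, 0.0356).

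Among 31 tested substrates of ADAM shedding 4 rose and 9 fell, with a median of −0.17, beside 33.4% of all genes called. The block gave 6 and 14, beside 42% of all genes. The falls included Jag1, a Notch ligand (−1.63, SE 0.206, adjusted p = 8.99e-05), Met, the receptor of hepatocyte growth factor (−1.17, SE 0.133, 3.94e-05), Hbegf (−0.78, SE 0.196, 0.00902) and the heparan sulphate carrier Sdc1 (−0.54, SE 0.073, 0.000146). The rises were Ncam1, a neural adhesion protein (1.83, SE 0.219, adjusted p = 5.90e-05), the TNF receptor Tnfrsf1a (0.45), App (0.44) and Il6r (0.40). Tnf itself fell by 0.54 when trametinib was added (adjusted p = 0.00176) and by 0.55 with alprostadil against vehicle (0.0496). Alprostadil also raised Areg, the EGF receptor ligand amphiregulin, by 1.11 (SE 0.197, adjusted p = 0.0374), and lowered Axl, a receptor tyrosine kinase, by 0.37 (SE 0.062, 0.0286). In the other 6 related lists alprostadil called 0 genes without the block, and trimebutine called 0 in all 7.

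Inhibitors of these proteases split. Timp3, the TIMP that inhibits ADAM17 and the aggrecanases, read 11.46, 11.17 and 11.84 with trimebutine and 12.44, 12.40 and 12.54 with trametinib added. Replicates differed by 0.67 before and by 0.14 after, and the rise was 0.97 (SE 0.183, adjusted p = 0.00165). Timp2 rose by 0.46 (adjusted p = 2.07e-05) and Reck, a membrane inhibitor, by 0.31 (0.0390). Timp1 fell from 12.93, 12.97 and 12.89 to 12.65, 12.69 and 12.59, by 0.29 (0.00151), and A2m, the broad protease trap alpha-2-macroglobulin, fell by 1.29 (1.86e-06). Of the 7 tested genes of this list 3 rose and 2 fell, with a median of 0.03, beside 16.8% and 16.6% of all genes. Of the 8 proprotein convertases and procollagen-processing genes 4 rose and 1 fell, with a median of 0.14, beside the same shares of all genes: Bmp1, the procollagen C-proteinase, by 0.86 (3.79e-05), Pcsk6 by 0.69 (3.12e-05), Pcolce by 0.39 (0.00162) and Pcsk7 by 0.28 (0.00982), while Tll2 fell by 0.26 (0.0120). Furin, the best known activator of ADAM and ADAMTS zymogens, gave 0.01 (interval −0.18 to 0.19, adjusted p = 0.967).

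Among the matrix targets of the ADAMTS enzymes, collagen genes rose and versican did not pass. Collagens and glycoproteins gave 6 rises and 3 falls among 13 genes, with a median of 0.10, beside 16.8% and 16.6% of all genes. The fibrillar chains Col3a1 (0.97, adjusted p = 8.16e-07), Col5a1 (0.77, 1.85e-06), Col1a2 (0.59, 4.88e-06) and Col1a1 (0.56, 1.34e-05) rose in the same arrays as Adamts2 and Adamts14. Reln, the secreted glycoprotein reelin cut by ADAMTS3 and others, fell by 1.44 (4.88e-06). The proteoglycan and hyaluronan list gave 1 rise and 3 falls among 11, with a median of 0.02, beside 33.4% of all genes called in either direction. Vcan, the large proteoglycan of dermal precursors and the substrate of Adamts1, Adamts5, Adamts9 and Adamts15, read 12.58, 12.72 and 12.61 and then 12.73, 12.79 and 12.70, a difference of 0.10 (interval −0.02 to 0.23, adjusted p = 0.203). Acan, the substrate for which aggrecanases are named, stayed near the limit at 6.17 ± 0.08 and 6.14 ± 0.05 (SD, n = 3, adjusted p = 0.801). The hyaluronan synthases went apart, with Has1 up by 1.03 (0.000167) and Has2 down by 0.93 (0.000779), and the link protein genes Hapln1 and Hapln3 fell by 0.89 (0.0128) and 0.52 (0.0426).

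Partners of ADAMTSL proteins in fibrillin microfibrils gave 7 rises and 3 falls among 12 tested genes, with a median of 0.46, beside 16.8% and 16.6% of all genes and their median of 0.03. Mfap5, a microfibril glycoprotein, rose from 6.37 ± 0.46 to 11.04 ± 0.62 (SD, n = 3), by 4.67 (SE 0.323, adjusted p = 9.98e-07), and Fbn1, fibrillin itself, by 1.21 (7.31e-08). Loxl1, a crosslinking enzyme of elastic fibres, rose by 0.58 (5.07e-06), and Pofut2, which fucosylates the thrombospondin repeats of ADAMTS and ADAMTSL proteins, by 0.30 (0.00134). The 3 falls were in the latent TGF-beta binding proteins Ltbp3 (−0.95, 1.39e-06), Ltbp2 (−0.77, 0.00312) and Ltbp1 (−0.69, 0.0277), while Ltbp4 rose by 0.34 (0.0120).

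**Figure D4:**
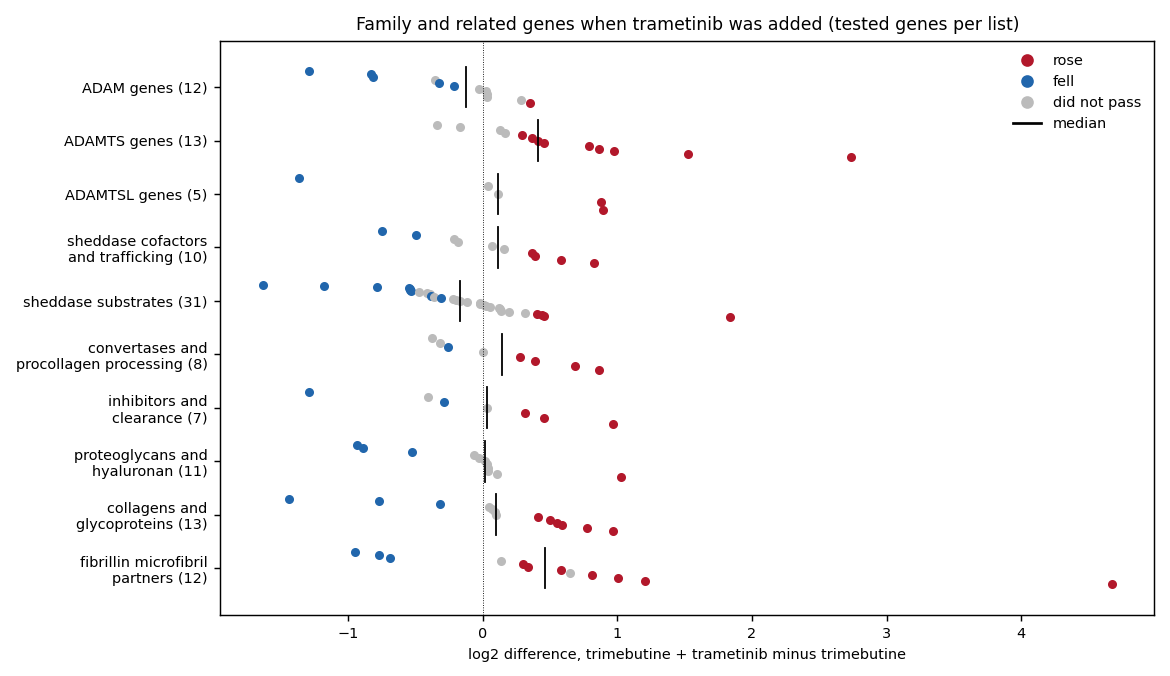
Log2 difference between trimebutine with trametinib and trimebutine (x axis) of each tested gene in the 3 families and 7 lists of related genes (y axis, number tested in brackets), red where it rose, blue where it fell and grey where it did not pass, with a line at the median. ADAM genes centre on −0.12, ADAMTS genes on 0.41 and the fibrillin partners on 0.46, with Mfap5 at 4.67.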

How the data were processed

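RNA of 12 SKP cultures was measured on 1-colour Affymetrix arrays. The authors deposited log2 values, 1 per feature and array, which the submitters' processing notes credit to RMA in the oligo package, with no version given. RMA gives the probe intensities of every array the same distribution before they are summarised per feature, so array medians of the features can still differ. This hides any change in the amount of RNA in a cell. The table had 36685 features. Of these 18511 had 1 symbol in the platform annotation, 575 several and 17599 none, and each symbol was brought up to date by its Entrez identifier in the GRCr8 gene table (18394 matched and 117 kept). The brightest feature stood for a gene, which left 18166 genes. Gene coordinates are not given because the array's build is not named in the sources used here.

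Groups and replicate numbers came from sample titles, and 0 pairs of arrays held identical values. One limma model (limma 3.58.1, R 4.3.3) with a mean per group was fitted to all 12 arrays and 13636 genes, with 8 residual degrees of freedom, and 4 contrasts were tested two-sided with Benjamini-Hochberg adjustment over all genes tested at 0.05. "Rose" and "fell" mean that a gene passed. The design text speaks of independent isolates, but the labels do not say that a number stands for the same isolate in every group. In all 18 pairs with the same number the arrays' deviations from the group mean were correlated (r from 0.21 to 0.81). In the 36 pairs of different numbers r ran from −0.71 to 0.10. Deviations in a group cancel out, so positive r for same numbers makes the others lower, and that range is not separate support. The reported fit has no block and ignores this pairing. The replicate block (6 residual degrees of freedom) pairs same-numbered arrays and was run as an alternative. The p-values reflect how far cultures of these isolates differ, and the number of arrays limits the precision. The fit was also run on simulated data with independent noise for each array and no differences between replicate numbers. That check therefore does not bear on the pairing.

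Other alternatives left out each array, or each replicate number with the block, changed the limit on low values, the prior, the centring, the feature per gene or the groups in the fit. The members, their roles and the gene lists were chosen with earlier results of these data known. Named with values in each array were the members with the largest rises and falls among those called without overlap, up to 8 each, and the known sheddases, aggrecanases and procollagen proteases. From each list up to 4 called genes with the smallest p were named, with Timp1, Timp2, Timp3, Rhbdf1, Rhbdf2, Vcan and Acan. Other names complete a count or a role, with their values already known. Promoters and their GRCr8 coordinates are RefSeq's.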

Additional observations from a re-analysis of the deposited data

How the results depend on the processing

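No gene result followed here changed direction under an alternative. Those followed had passed in a fit or had a difference large beside its SE, so a reversal was unlikely from the start. Members with differences near zero were not followed. For the members named in the combination comparisons, and those of alprostadil with the largest differences, 42 gene results had 670 values under alternatives: 619 stayed on their side of the threshold, 48 no longer passed and 3 newly passed. Alprostadil called 0 members in all settings but the replicate block, where the count was 1 (Adamts15). Without any one array, and with the block without any one replicate number, it stayed 0, and trimebutine called 0 in every setting. When trametinib was added to trimebutine, 13 to 17 members were called without 1 array, 15 to 20 with the block without 1 replicate number, and 16 to 19 in the other settings, beside 18. The 13 came without replicate 1 of trimebutine and without replicate 2 of the combination. Against vehicle the counts were 15 to 18, 16 to 20 and 17 to 20, beside 18. The replicate block kept all 18 calls in both combination comparisons and changed no member's call other than those of Adamts15, Adamts4 and Adamts18. Centring arrays on their medians ended the calls of Adam9 and Adam17 when trametinib was added, and of Adam9 (0.0873) against vehicle. Leaving out the limit on low values ended the call of Adamts7 (0.0681), as did a fit of the 2 groups alone (0.0870), which also ended that of Adam9 against vehicle (0.0586). The stricter limit left out Adamts19. With 3 arrays a group and a median SE of 0.0867 (0.0722 with the block), differences of the size of those of Adam9 and Adamts7 lie near what these arrays can resolve, and the deposited values carry no measure of signal over background for members near the limit. The causes of these changes were not tested.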

Other observations

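Adamdec1 and Adam4l1, features with related symbols, lay outside the rule for members. The first, Adamdec1, a soluble ADAM-like protease known from gut macrophages, read from 4.01 to 4.91 over the 12 arrays, under the limit on low values. Adam4l1 read 6.82, 6.78 and 6.84 in vehicle, 6.67, 6.69 and 6.69 with alprostadil, 6.58, 6.59 and 6.54 with trimebutine, and 6.80, 6.70 and 6.72 with trimebutine and trametinib. Trimebutine against vehicle called 0 of the 13636 genes tested by limma, so the lower Adam4l1 values with trimebutine are not a call. In the GRCr8 gene table Adam9 is followed on chromosome 16 by Adam32, Adam5, Adam3a and Adam18, with 0 protein-coding genes between neighbours. Of these 5 genes Adam9 alone reached the limit, at 10.16 on average, and the other 4 averaged 5.69, 5.34, 5.44 and 4.97.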
